A study of Mus musculus with 30 samples.

Results

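Hoxd8, Hoxd9, Six2, Tbx2 and Tbx4 encode transcription factors that pattern the limb in the embryo, and their transcripts were followed here in a hindlimb and a forelimb muscle of mice. They were taken by symbol from the deposited table of log2 expression values, in which all 5 had a row among 11249 genes. The samples were male mice 3 days after surgery, and the surgery was a sham operation, a transection of the spinal cord at thoracic level T3, or a transection at T9. The gastrocnemius, the calf muscle, was sampled in 4 libraries per surgery group, and the triceps brachii of the forelimb in 6 libraries per group, which gives 12 and 18 libraries. Poly(A) RNA of whole muscle pieces was sequenced, so that fewer cells of a type and less RNA per cell cannot be told apart. Strain, age and any genetic modification were not given in the sources used here.

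HOX genes lie in clusters and are switched on in the order in which they lie there, so that each level of the body axis and of the limb carries its own combination of HOX proteins. Connective tissue and muscle cells of the adult are known to keep part of that combination. Tbx4 is the T-box gene of the hindlimb bud, opposite to Tbx5 in the forelimb bud. Tbx2, a T-box repressor, marks the margins of the limb bud and has roles in heart and vessel development. Six2 is a homeodomain gene of the sine oculis family, best known for keeping nephron progenitors undifferentiated, and it is also active in the connective tissue of the developing limb.

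Library depth ran from 13293557 to 23398801 reads, apart from 1 triceps library, T3 replicate 5, with 88826845. Levels are given in CPM, a gene's reads per 1000000 reads of the library, which are the deposited log2 values put back on the linear scale. The sample descriptions carry a number that links 12 gastrocnemius libraries to 12 triceps libraries. It was taken to name the mouse, which is an inference that the labels do not state. The comparison of the muscles was made within those 12 inferred mice, and every result within mice rests on this pairing. That number is the one link between libraries, since the labels do not say which came from separate animals. The p-values then measure the spread between these samples. The deviations of both libraries of a mouse from their group means had r over 0.1 over genes in 11 of the 12 mice (mean r = 0.322 over all 12). They went against each other in the mouse of triceps sham replicate 3 (r = -0.753). Values for libraries of different mice are not given here, so these correlations do not settle whether the pairs are right. The median log2 value over genes was lowest in 4 libraries, at 3.29 and 3.55 in triceps sham replicates 3 and 4, 3.66 in replicate 4 of the gastrocnemius sham group and 3.67 in replicate 1 of the triceps after T9, and results that depend on them are given with and without them. Triceps sham replicate 4 also had a summed level of 1080 CPM over 9 macrophage markers, where the median of its group was 37.3. Markers of the muscle fibre were present in all libraries of both muscles.

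Hoxd9 and Hoxd8 are neighbouring protein-coding genes on the plus strand of chromosome 2 (GRCm38). Hoxd9 (ENSMUSG00000043342) runs from 74697727 to 74700208 and Hoxd8 (ENSMUSG00000027102) from 74704615 to 74707933, with 4406 bases between them. The antisense gene Hoxd3os1 overlaps Hoxd8 on the minus strand, and whether reads were counted by strand was not stated, so reads from both cannot be told apart. Tbx2 (ENSMUSG00000000093, 85832551 to 85841948) and Tbx4 (ENSMUSG00000000094, 85886422 to 85916097) lie on the plus strand of chromosome 11 with 44473 bases between them. Six2 (ENSMUSG00000024134) lies on the minus strand of chromosome 17, from 85684277 to 85688274. The promoter sequences of the 3 members that were higher in the gastrocnemius of every mouse are shown because these genes moved together between the muscles. They come from RefSeq (GRCm38.p6), start 250 bases before the RefSeq gene start and are 200 bases long. For Hoxd9 and Six2 the RefSeq start differs from the one in the coordinates above. The sequences are printed 5′ to 3′ on the gene's strand, with motif matches in capitals.
Hoxd8, chr2:74704365-74704564, plus strand: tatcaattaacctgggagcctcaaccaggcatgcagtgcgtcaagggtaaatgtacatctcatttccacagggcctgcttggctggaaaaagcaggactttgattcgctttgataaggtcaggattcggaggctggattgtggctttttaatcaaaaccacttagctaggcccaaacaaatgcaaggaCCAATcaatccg
Hoxd9, chr2:74697513-74697712, plus strand: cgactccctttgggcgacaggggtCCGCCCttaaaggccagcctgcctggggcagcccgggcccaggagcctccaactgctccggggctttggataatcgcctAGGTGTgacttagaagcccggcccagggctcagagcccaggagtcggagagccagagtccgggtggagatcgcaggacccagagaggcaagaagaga
Six2, chr17:85688305-85688504, minus strand: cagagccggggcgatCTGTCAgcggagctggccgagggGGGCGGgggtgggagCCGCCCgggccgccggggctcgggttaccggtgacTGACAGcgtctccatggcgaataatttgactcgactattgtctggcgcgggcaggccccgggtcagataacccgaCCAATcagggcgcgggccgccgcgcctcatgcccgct

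The 3 windows differed in composition, with a GC content of 46.5% in Hoxd8, 65.5% in Hoxd9 and 71% in Six2 beside a median of 51.5% over 32817 promoter windows of the same length. CpG dinucleotides numbered 4, 10 and 24, and 94.4% of all windows held fewer than Six2. The motifs searched on both strands were CCAAT (in 28.4% of all windows), the GC box GGGCGG (24.6%), the MEIS site TGACAG (13.1%), the T-box site AGGTGT (9.86%), TATAAA (9.14%), the homeodomain core TAATTA (4.2%), the sine oculis (MEF3) site TCAGGTT (2.85%) and the HOX-PBX site TGATTNAT (2.34%). CCAAT was found in Hoxd8 and Six2, the GC box in Hoxd9 and on each strand of Six2, the T-box site in Hoxd9 and the MEIS site on each strand of Six2. None of the 8 motifs was found in all 3 windows. A match is a run of letters and not a shown binding site.

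Of the 5 genes, Hoxd8 had the highest level per length of transcript. Its median over the 12 gastrocnemius libraries was 17.1 CPM per kilobase of exon, against 8.42 for Hoxd9, 8.31 for Six2, 1.08 for Tbx4 and 0.993 for Tbx2. In the triceps, the same medians were 9.61 for Hoxd8, 3.54 for Hoxd9, 1.28 for Six2, 0.763 for Tbx4 and 0.573 for Tbx2. Six2 was thus close to Hoxd9 in the gastrocnemius and nearer to the T-box genes in the triceps. The lowest library held 247 reads of Hoxd8, 81 of Hoxd9, 17 of Tbx4, 11 of Six2 and 10 of Tbx2, all in the triceps. The exact Poisson interval for 10 reads is 4.8 to 18.4 and covers counting error only, so single triceps values of Tbx2, Tbx4 and Six2 are imprecise.

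**Figure D1:**
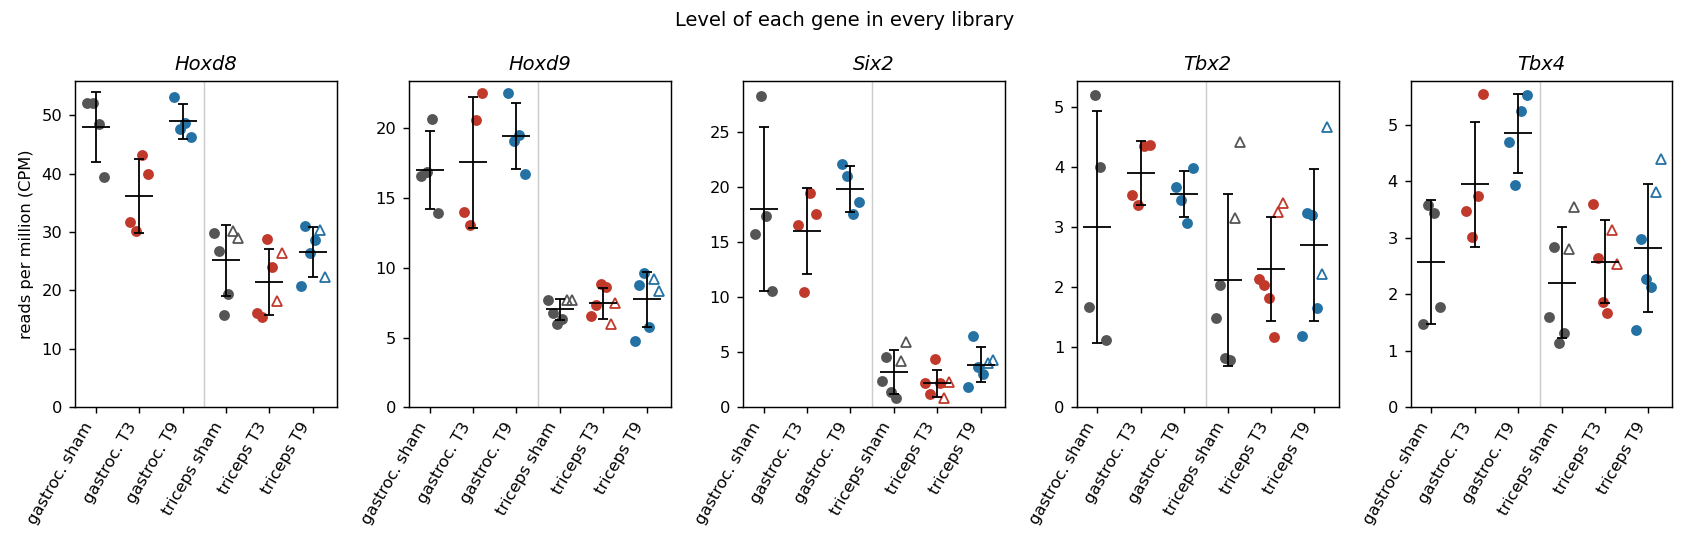
Level in CPM (linear axis from 0) of each gene in all 30 libraries, by muscle and surgery. Circles are libraries whose description opens with 60, open triangles those that open with 57; black lines give mean ± SD of the group. Hoxd9 and Six2 have every gastrocnemius library above every triceps library, while the T-box genes overlap between the muscles.

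The first question was whether the level of each gene differs between hindlimb and forelimb muscle in each surgery group. Hoxd8, Hoxd9 and Six2 were higher in the gastrocnemius after all 3 surgeries, by 1.76- to 2.14-fold, 2.20- to 2.79-fold and 5.85- to 8.89-fold. Tbx2 passed the test in the sham and T3 groups and Tbx4 in the T9 group. In each surgery group 4 of the 5 genes were therefore called higher (limma with mouse as a block, Benjamini-Hochberg adjusted p under 0.05 over all genes). The share of all genes called higher was 26.8% in the sham group, 20.5% after T3 and 41.9% after T9, and the share called lower was 12%, 9.95% and 11.1% (38.9%, 30.4% and 53% in either direction). The median log2 difference over the 5 genes was 1.1, 1.14 and 1.2, beside 0.269, 0.231 and 0.398 over all genes tested. Because the 5 genes were chosen with earlier results of these data known, setting them beside all genes is a description and not a test. Centring each library on its median removes that shift, and 17.7%, 15.9% and 21.6% of all genes were then higher and 20.2%, 16% and 24.2% lower, with 4 of the 5 members still called higher in each surgery group.

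Six2 had the largest difference of the 5. Its 4 gastrocnemius sham libraries stood at 15.8, 28.3, 17.4 and 10.6 CPM, and the 6 triceps sham libraries at 0.865 to 5.94 CPM with a median of 3.29. After T3 the gastrocnemius held 16.6, 10.5, 19.5 and 17.6 CPM and the triceps 0.805 to 4.38 (median 2.2). After T9 the gastrocnemius held 22.1, 21, 17.6 and 18.7 CPM and the triceps 1.82 to 6.5 (median 3.81). The muscles do not overlap after any of the 3 surgeries. The log2 difference was 3.15 ± 0.292 (SE) in the sham group (limma adjusted p = 0.00031), 2.80 ± 0.292 after T3 (adjusted p = 0.00013) and 2.55 ± 0.292 after T9 (adjusted p = 7.4e-05). Among 11249 genes ranked from highest to lowest difference, Six2 was number 3 in the sham group, 6 after T3 and 37 after T9.

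Hoxd9, which lies in the middle of the Hoxd cluster, was called higher in the gastrocnemius in each surgery group. The gastrocnemius libraries held 16.6, 16.9, 20.7 and 13.9 CPM in the sham group, 14.0, 13.1, 20.6 and 22.5 after T3, and 22.5, 19.1, 19.5 and 16.7 after T9. The triceps libraries ran from 5.95 to 7.69 CPM in the sham group (median 7.21), from 5.99 to 8.83 after T3 (median 7.4) and from 4.72 to 9.6 after T9 (median 8.53). Every gastrocnemius library was above every triceps library. The log2 difference was 1.34 ± 0.196 (adjusted p = 0.0051), 1.14 ± 0.196 (adjusted p = 0.0026) and 1.48 ± 0.196 (adjusted p = 0.00017) in the sham, T3 and T9 groups, by limma.

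Hoxd8, its neighbour in the cluster, followed with smaller folds at a higher level. Gastrocnemius libraries held 52.0, 52.0, 48.4 and 39.4 CPM in the sham group, 31.7, 30.1, 43.2 and 39.9 after T3, and 53.1, 47.7, 48.6 and 46.3 after T9. The triceps libraries ran from 15.8 to 30.2 CPM in the sham group (median 27.8), from 15.4 to 28.8 after T3 (median 21.1) and from 20.7 to 31.1 after T9 (median 27.5). Within a surgery group the muscles did not overlap, and over all surgeries 11 of 12 gastrocnemius libraries exceeded the highest triceps library. The log2 difference was 1.10 ± 0.16 in the sham group (limma adjusted p = 0.0051), 0.82 ± 0.16 after T3 (adjusted p = 0.005) and 0.89 ± 0.16 after T9 (adjusted p = 0.0011). When the mice of the 4 libraries with the lowest medians were left out, 2 sham mice remained and only 9 genes were called in the sham group. By limma Six2 was still called there (adjusted p at most 0.0066 over all 23 alternatives run for the sham group), while Hoxd8 (0.878, adjusted p = 0.067) and Hoxd9 (1.22, adjusted p = 0.054) were not.

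Within each surgery group, these 3 genes had their lowest gastrocnemius library above the highest triceps library, which held for 0.702% of all genes in the sham group, 11.9% after T3 and 36.1% after T9. Over all surgeries together, the lowest of 12 gastrocnemius libraries lay above the highest of 18 triceps libraries for 9 genes (0.08%), and Six2 and Hoxd9 are among them. For Six2 those values were 10.5 and 6.5 CPM, and for Hoxd9 13.1 and 9.6 CPM. The other 7 were Rasd2, Plekha4, Smyd2, Setbp1, Tdrp, Gm49477 and Car11, named here after their values were seen.

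Tbx2 and Tbx4 had lower levels and wider spread, and their muscles overlapped. Tbx2 stood at 1.67, 5.2, 4.0 and 1.12 CPM in the gastrocnemius sham libraries, 3.53, 3.36, 4.35 and 4.36 after T3, and 3.67, 3.44, 3.07 and 3.98 after T9. Triceps libraries ran from 0.79 to 4.42 CPM in the sham group (median 1.76), from 1.17 to 3.4 after T3 (median 2.08) and from 1.19 to 4.66 after T9 (median 2.71). The muscles overlapped after each surgery, after T3 only through 1 triceps library whose description opens with 57 (3.4 CPM), since those with 60 reached 2.13 CPM. The log2 difference was 1.08 ± 0.365 in the sham group (limma adjusted p = 0.035), 1.15 ± 0.365 after T3 (adjusted p = 0.032) and 0.73 ± 0.365 after T9 (adjusted p = 0.1). With all 30 libraries and mouse as a random block, Tbx2 was called after T9 as well (0.843, limma adjusted p = 0.032). By limma the sham call was lost without the mouse of triceps sham replicate 2 (adjusted p = 0.1) or replicate 3 (0.678, adjusted p = 0.22), without the mice of the 4 libraries with the lowest medians (0.763, adjusted p = 0.28), and under quantile normalization (0.594, adjusted p = 0.093). Without the mouse block, limma's adjusted p was 0.068 in the sham group and 0.053 after T3. The T3 call of limma was lost without the mouse of triceps T3 replicate 2 (adjusted p = 0.06), 3 (adjusted p = 0.11) or 4 (adjusted p = 0.19).

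Tbx4, the hindlimb gene of the pair, was detected in both muscles. Gastrocnemius libraries held 1.48, 3.58, 3.44 and 1.77 CPM in the sham group, 3.47, 3.02, 3.74 and 5.54 after T3, and 4.7, 3.93, 5.25 and 5.52 after T9. In the triceps the range was 1.13 to 3.55 CPM in the sham group (median 2.2), 1.67 to 3.59 after T3 (median 2.59) and 1.36 to 4.4 after T9 (median 2.62). The muscles overlapped after each surgery, after T9 only through 1 triceps library with 57 (4.4 CPM). The other with 57 stood at 3.81 CPM, and those with 60 reached 2.98 CPM. The log2 difference was 0.57 ± 0.327 (limma adjusted p = 0.17) in the sham group, 0.72 ± 0.327 (adjusted p = 0.1) after T3 and 1.2 ± 0.327 (adjusted p = 0.0093) after T9. With all 30 libraries and mouse as a random block, Tbx4 was called after T3 too (0.832, limma adjusted p = 0.016). The T9 call of limma was lost without the mouse of triceps T9 replicate 1, 1 of the libraries with a low median (0.998, adjusted p = 0.06). The T3 difference passed limma's test without the mouse of triceps sham replicate 3 (adjusted p = 0.047). With the library median as a covariate, an alternative chosen after seeing the data, limma gave a T9 difference of 0.223 (adjusted p = 0.69).

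Within single mice, Hoxd8, Hoxd9 and Six2 were higher in the gastrocnemius in 12 of 12 mice, as were 21.7% of all genes. The log2 difference within a mouse ran from 0.47 to 1.61 for Hoxd8 (median 0.92), from 0.841 to 2.25 for Hoxd9 (median 1.2) and from 1.69 to 3.66 for Six2 (median 2.82). Tbx2 was higher in 11 of 12 mice, from -0.0596 to 2.28, and Tbx4 in 10 of 12, from -0.11 to 1.79. The widest sham difference of Hoxd8, Hoxd9, Tbx2, Tbx4 and Six2 was that of the mouse of triceps sham replicate 3 (1.61, 1.8, 2.28, 1.61 and 3.66), which also carried the lowest library median. Without that mouse the number of genes called in the sham group went from 4374 to 96.

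**Figure D2:**
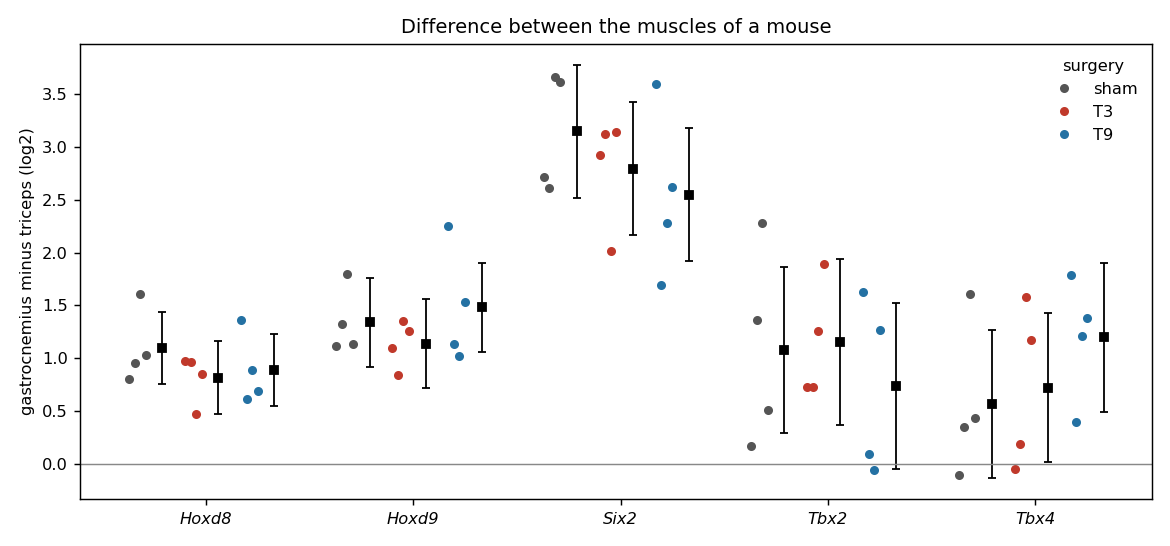
Gastrocnemius minus triceps on the log2 scale for each gene and surgery. Coloured points are the 12 mice with both muscles, and black squares with bars are the limma estimates with 95% intervals. The intervals of Hoxd8, Hoxd9 and Six2 lie above 0 in each surgery group, and the points of the T-box genes reach 0.

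Markers of other cell types were also compared between the muscles. The share of all genes called higher in the gastrocnemius was 26.8%, 20.5% and 41.9% in the sham, T3 and T9 groups, and the share called lower 12%, 9.95% and 11.1%. After T9 the endothelial, macrophage, satellite cell and adipocyte markers were called higher less often than all genes. Of 5 Schwann cell markers in the table, 4 were higher in the gastrocnemius in the sham group and 5 after T3 and after T9, with a median log2 difference of 2.53, 2.39 and 2.67. Mbp, a myelin protein, was higher by 2.68 ± 0.291 in the sham group (limma adjusted p = 0.00076). The summed Schwann markers ran from 68.9 to 250 CPM in the gastrocnemius sham libraries and from 20.5 to 53.9 in those of the triceps. The 10 endothelial markers ran from 120 to 355 CPM in the gastrocnemius sham libraries and from 82.5 to 413 in the triceps, and 7, 7 and 3 of them were called higher in the gastrocnemius in the sham, T3 and T9 groups. Smooth muscle and pericyte markers were called higher in 5, 5 and 4 of 8 and lower in 0, 0 and 1, and tendon markers in 2, 3 and 2 of the 3 in the table. Fibroblast markers were called higher in 1, 0 and 1 of 13 and lower in 3, 1 and 2. Satellite cell markers were higher in 1, 2 and 2 of 5 and lower in 1, 0 and 0 (Myf5), macrophage markers were higher in 0, 1 and 3 of 9 and lower in none, and adipocyte markers were higher in 3, 3 and 1 of 6 and lower in 1 each time (Fabp4). Slow fibre markers were called lower in 3, 3 and 7 of 9, fast fibre markers in 2, 1 and 4 of 11 (4, 1 and 3 higher), and general fibre markers were higher in 3, 1 and 3 of 6 and lower in 1 each time (Mb). No listed marker in the table was at 0 in all libraries. Sox10, S100b, Mag, Tnmd, Mkx, Pax7 and Calcr were among the listed markers without a row in the table and were not analysed here. The part of these cell types in the muscle difference of the 5 genes was not tested.

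The next question was whether injury changes the difference between the muscles. The test of the T3 effect in the gastrocnemius minus that in the triceps called none of the 5 genes, against 1.24% of all genes (0.142% larger in the gastrocnemius, 1.1% smaller), and the same test for T9 called none, against 6.95% (3.76% and 3.19%). By limma 0 of 5 had an unadjusted p under 0.05 in either test, and voom weights gave 0 as well. For Six2 the change in the difference was -0.36 (95% interval -1.25 to 0.534) after T3 and -0.61 (-1.5 to 0.285) after T9. For Tbx4 it was 0.15 (-0.843 to 1.15) and 0.63 (-0.368 to 1.63), so that a change of 1 log2 unit lies within the interval of both genes. For Hoxd8 the intervals were narrower, -0.77 to 0.203 after T3 and -0.699 to 0.274 after T9.

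Injury was then compared with sham surgery within each muscle. In the gastrocnemius after T3, Hoxd8 was the only member called, and it was lower (33.7% of all genes were called, 27.1% higher and 6.65% lower). The difference was -0.41 ± 0.15 on the log2 scale (limma adjusted p = 0.048), or 0.752 of the sham level. The mean was 36.2 ± 6.33 CPM (SD, n = 4) after T3, 47.9 ± 5.97 (n = 4) in the sham group and 48.9 ± 2.94 (n = 4) after T9. The T3 and sham libraries overlapped, since T3 replicates 3 and 4 (43.2 and 39.9 CPM) exceeded sham replicate 4 (39.4 CPM). The limma call was lost when sham replicate 1 (adjusted p = 0.12), 2 (adjusted p = 0.082) or 3 (adjusted p = 0.068), or T3 replicate 1 (adjusted p = 0.12), 2 (adjusted p = 0.13) or 4 (adjusted p = 0.057), was left out, and with only the sham and T3 groups in the fit (adjusted p = 0.12). It was also lost with the replicate number as a block (limma adjusted p = 0.083) and without limma's variance trend (adjusted p = 0.058). Centring the libraries on their medians gave, by limma, -0.69 ± 0.121 (adjusted p = 0.0013).

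In the gastrocnemius after T9, Tbx4 was the only member called, and it was higher (43.2% of all genes were called, 37.6% higher and 5.67% lower). The mean went from 2.57 ± 1.1 CPM (SD, n = 4) in the sham group to 4.85 ± 0.703 (n = 4) after T9. The T9 libraries ran from 3.93 to 5.52 CPM and the sham libraries from 1.48 to 3.58 CPM. The log2 difference was 1.01 ± 0.298 (limma adjusted p = 0.016), where the median over all genes was 0.396. The sham libraries themselves split into 1.48 and 1.77 CPM in replicates 1 and 4, whose library medians were 3.86 and 3.66, and 3.58 and 3.44 CPM in replicates 2 and 3, with medians of 4.02 and 4.06. With libraries centred on their medians Hoxd8 was the member called after T9, and it was lower (-0.36, limma adjusted p = 0.045). On that scale the limma difference of Tbx4 was 0.612 (adjusted p = 0.099), after quantile normalization 0.638 (adjusted p = 0.092), without sham replicate 1 it was 0.783 (adjusted p = 0.055), and with the median as a covariate -0.0411 (adjusted p = 0.96). After T3 the mean of Tbx4 was 3.94 ± 1.11 CPM (n = 4), a log2 difference of 0.69 ± 0.298 from sham (limma adjusted p = 0.088). That difference passed limma's test without sham replicate 2 (adjusted p = 0.029) or 3 (adjusted p = 0.037), and Tbx2 after T3 did so without sham replicate 2 (0.983, adjusted p = 0.032).

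The other members in the gastrocnemius gave log2 differences of 0.02 ± 0.197 and 0.20 ± 0.197 for Hoxd9, -0.11 ± 0.262 and 0.22 ± 0.262 for Six2, and 0.63 ± 0.383 and 0.50 ± 0.383 for Tbx2 after T3 and T9. None passed the test. The sham libraries of Tbx2 fell apart into 1.12 and 1.67 CPM in replicates 4 and 1 and 4.0 and 5.2 CPM in replicates 3 and 2, and the T3 and T9 libraries, at 3.07 to 4.36 CPM, lay inside the sham range. T3 and T9 compared directly gave no call among the 5 (1.63% of all genes, 0.729% higher and 0.898% lower after T3), and Hoxd8 was the only one with an unadjusted p under 0.05 (-0.45 ± 0.15, limma adjusted p = 0.16). With only the T3 and T9 groups in the fit, limma's adjusted p of Hoxd8 was 0.044.

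In the triceps none of the 5 genes was called after T3 (23.3% of all genes, 19% higher and 4.32% lower), after T9 (0.00889%, 1 gene) or between T3 and T9 (7.6%, 4.95% higher and 2.65% lower). By limma 0 of 5 had an unadjusted p under 0.05 in any of the 3 comparisons, and voom weights also called 0. The log2 differences from sham were -0.23 ± 0.195 and 0.11 ± 0.195 for Hoxd8, 0.08 ± 0.177 and 0.10 ± 0.177 for Hoxd9, and -0.46 ± 0.465 and 0.47 ± 0.465 for Six2 after T3 and T9. For Tbx2 they were 0.31 ± 0.323 and 0.49 ± 0.323, and for Tbx4 0.30 ± 0.264 and 0.38 ± 0.264. The widest interval was that of Six2, from -1.43 to 0.52 after T3 and from -0.511 to 1.44 after T9. Six2 had its lowest mean after T3, at 2.19 ± 1.24 CPM (SD, n = 6), with 3.23 ± 2.0 (n = 6) in the sham group and 3.89 ± 1.55 (n = 6) after T9, and the T3 minus T9 difference was -0.92 ± 0.465 (limma adjusted p = 0.27). With the library median as a covariate, an alternative chosen after seeing the data, limma called Six2 lower after T3 than in sham (-1.21, adjusted p = 0.044). By limma it was then also lower after T3 than after T9 (-1.13, adjusted p = 0.036). In each of these comparisons, Six2 was called in only 1 of 25 alternatives.

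**Figure D3:**
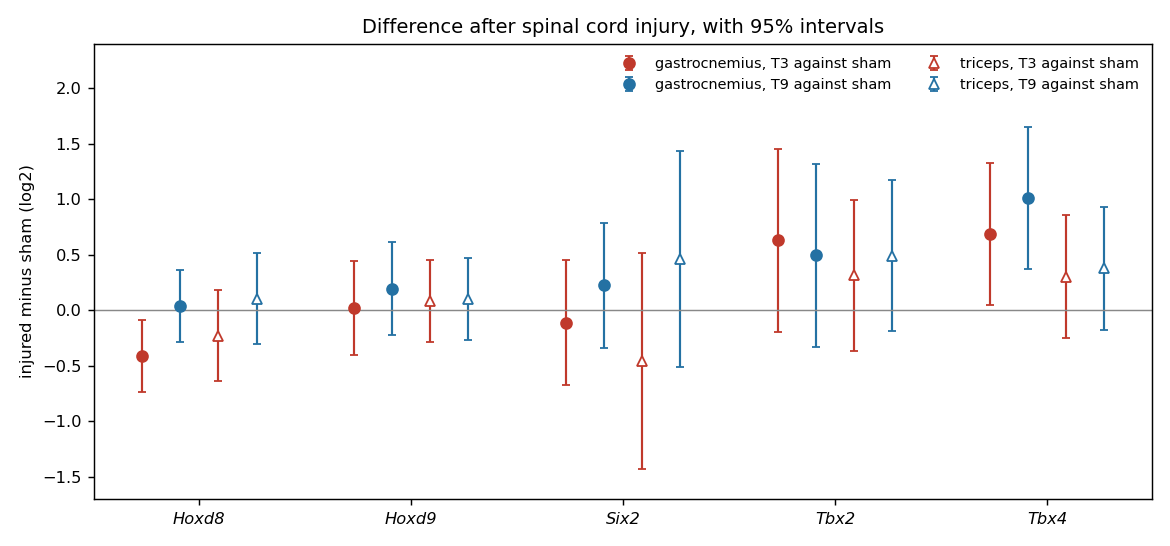
Injured minus sham on the log2 scale for each gene, in the gastrocnemius (filled circles) and the triceps (open triangles), after T3 (red) and T9 (blue), with 95% intervals from limma. The intervals of Hoxd8 in the gastrocnemius after T3 and of Tbx4 in the gastrocnemius after T3 and T9 leave out 0, and all intervals in the triceps include 0.

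The triceps libraries carry a number of 57 (6 libraries) or 60 (12 libraries) at the start of their description, whose meaning was not given, and all gastrocnemius libraries carry 60. In a fit with surgery, Tbx2 was higher in the 57 libraries by 1.06 ± 0.28 on the log2 scale (limma adjusted p = 0.019) and Tbx4 by 0.74 ± 0.229 (adjusted p = 0.024), where 37.3% of all genes were called. Hoxd8 (0.164 ± 0.169), Hoxd9 (0.112 ± 0.153) and Six2 (0.325 ± 0.403) were not called. The limma fit between the muscles and the differences within mice rest on libraries with 60 alone, while the ranges, medians and overlaps of the triceps include those with 57.

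How the 5 genes varied together was examined within each muscle, over 10 pairs per muscle and 20 relations in all. The permutations shuffled the libraries of a muscle without regard to surgery, the number 57 or 60, or the library median. Their p-values therefore also carry differences that both genes share between such sets of libraries. In the triceps, Tbx4 and Tbx2 had r = 0.859 over 18 libraries (permutation p = 1e-05, the smallest that the permutations can give, adjusted p = 0.0002) and rho = 0.818 (permutation p = 8e-05). The r was 0.775 without the 2 libraries farthest from the median of Tbx4 and 0.74 after centring each library on its median. It was 0.839 in the 12 libraries with 60 and 0.238 in the 6 with 57. Many other genes followed each of them more closely over all 30 libraries. Tbx4 was number 1445 in the ranking of Tbx2, and Tbx2 number 799 in that of Tbx4. Hoxd8 and Six2 in the triceps had r = 0.777 (permutation p = 0.0002, adjusted p = 0.002) and rho = 0.787 (permutation p = 0.00019), with 0.73 without the 2 farthest libraries, 0.638 after centring, and 0.784 and 0.79 in the libraries with 60 and 57. Hoxd8 and Hoxd9, neighbours in the cluster, had r = 0.518 in the triceps (permutation p = 0.029, adjusted p = 0.067) and rho = 0.564 (permutation p = 0.016). In the gastrocnemius none of the 10 relations had an adjusted p under 0.05 over 12 libraries. There Tbx4 and Tbx2 had r = 0.784 (permutation p = 0.0097, adjusted p = 0.054) and rho = 0.49 (permutation p = 0.11), and r was -0.04 without the 2 farthest libraries, so that relation rests on those.

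**Figure D4:**
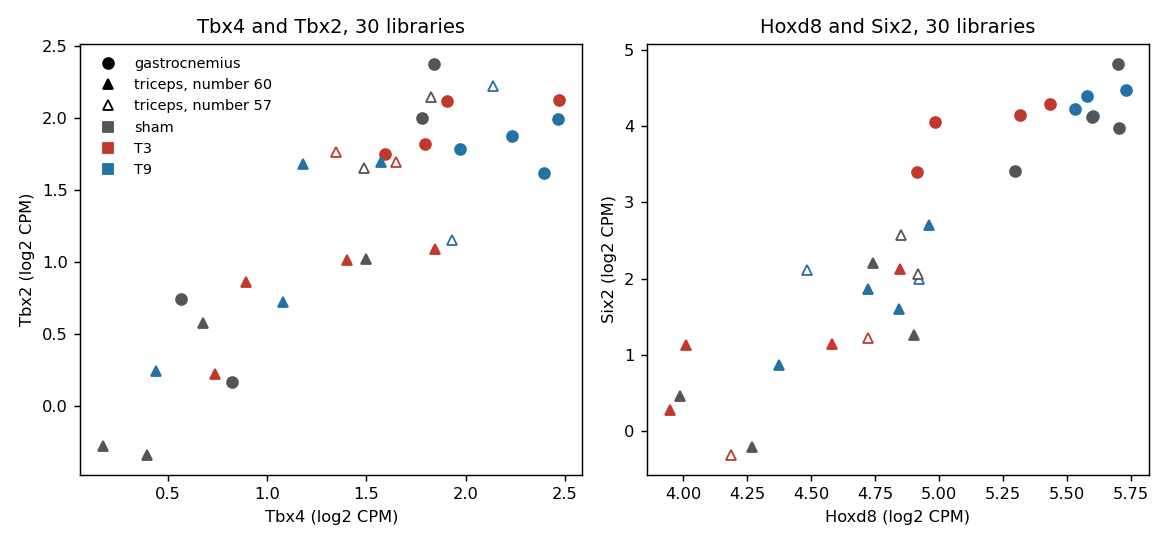
Tbx4 against Tbx2 (left) and Hoxd8 against Six2 (right) in log2 CPM, 1 point per library (circles gastrocnemius, triangles triceps, open triangles the triceps libraries with 57, colours the surgery). Tbx4 and Tbx2 run together across muscles, and Hoxd8 and Six2 separate the muscles.

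Likeness was also ranked over all genes as the correlation of log2 values over the 30 libraries, which share muscle, depth and library median. For Six2 the most alike genes were Hoxd8 (r = 0.918), Car11 (0.912), Hoxd9 (0.912), Cdh4 (0.908) and Rap1gds1 (0.907). For Hoxd8 they were Six2, Tmpo (0.915), Rap1gds1 (0.883), Wdsub1 (0.873) and Hoxd9 (0.87), and for Hoxd9 they were Six2 (0.912), Mbp (0.884), Plekha4 (0.871), Hoxd8 and Ppp1r3d (0.861). The genes most like Tbx2 were Tie1 (0.969), Tnks1bp1 (0.961), Notch3 (0.959), Cdh5 (0.959) and Pear1 (0.957). Tie1 and Cdh5 were on the endothelial marker list and Notch3 on that of smooth muscle and pericytes. For Tbx4 they were Arf3 (0.928), Lmnb1 (0.927), Sufu (0.925), Pigs (0.923) and Entpd6 (0.922), and Tbx2 (0.858) was number 799 in that ranking. Once the 6 group means were removed, Six2 was number 48 for Hoxd8 (0.737) and Hoxd9 number 427 (0.622), with Tmpo first for both Hoxd genes (0.833 and 0.778). For Hoxd9, Six2 was then number 302 (0.587). In the ranking of Six2, Hoxd8 fell to number 418 (0.737) and Hoxd9 to number 2252 (0.587), behind Fam189b (0.899), Kcng4 (0.897) and Gdf11 (0.893). Notch3 (0.967) stayed among the 5 genes most like Tbx2, with Abca7 (0.968), Khsrp (0.968), Lamb2 (0.964) and Lmf2 (0.963), and Sufu (0.903) and Arf3 (0.902) led for Tbx4.

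The members also moved with the median of the library. In the 3 triceps libraries with the lowest medians the mean was 0.933 CPM for Tbx2, 1.27 for Tbx4 and 1.35 for Six2, against 2.65, 2.79 and 3.45 in the other 15. Hoxd8 and Hoxd9 stood at 18.6 and 5.67 CPM there, against 25.6 and 7.75. In the gastrocnemius library with the lowest median, Tbx2 was at 1.12 CPM and Tbx4 at 1.77, against means of 3.69 and 3.97 in the other 11. With the library median as a covariate the Tbx2 difference between the muscles was 0.297 in the sham group (limma adjusted p = 0.55) and 0.482 after T3 (adjusted p = 0.24).

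Genes near the members on the chromosome were read from the annotation, 5 on each side, and few of them were in the table. Bcas3, 6492 bases before Tbx2, was higher in the gastrocnemius by 1.26 in the sham group (limma adjusted p = 0.017), 1.11 after T3 (adjusted p = 0.014) and 1.18 after T9 (adjusted p = 0.0043). Brip1os and Ints2, farther from Tbx4 on the other side, were not called in any of the 3. On the Hoxd cluster, Hoxd8 and Hoxd9 were the only genes of the 10 neighbours of each that were in the table. Of 2 measured neighbours of Six2, Srbd1 at 296390 bases was called higher in the gastrocnemius after T9 (0.97, limma adjusted p = 0.0032) and not in the sham group (0.21, adjusted p = 0.44) or after T3 (0.52, adjusted p = 0.077). Prkce, at 479510 bases, was called higher in all 3 surgery groups.

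The wider families give the setting for the 5 genes. The lists hold 129 genes of the HOX and T-box families, the sine oculis genes with their EYA and DACH partners, HOX cofactors, other limb field regulators and HOX long noncoding RNAs, of which 34 were in the table. Of 39 HOX genes 9 were in the table, 7 of 11 from the Hoxa cluster, 2 of 9 from the Hoxd cluster and none from Hoxb or Hoxc, and of 17 T-box genes 5 were. Tbx5 and Pitx1, which act in the forelimb and the hindlimb bud, had no row in the table and were not analysed here. Among the 29 other genes in the table, 4 were called higher and 1 lower in the gastrocnemius in the sham group, 5 and 3 after T3, and 10 and 2 after T9. The shares of all genes called higher were 26.8%, 20.5% and 41.9%, and those called lower 12%, 9.95% and 11.1%. The median log2 differences of the 29 were 0.141, 0.137 and 0.447, where those over all genes were 0.269, 0.231 and 0.398. After centring, 4 of the 29 were higher and 8 lower in the sham group, 3 and 7 after T3, and 5 and 8 after T9. Of all 11249 genes, 1995 were then higher and 2270 lower in the sham group, 1784 and 1801 after T3, and 2432 and 2722 after T9.

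None of the 7 Hoxa genes was called higher in the gastrocnemius in any surgery group, and Hoxa5 was lower after T3 (-0.85 ± 0.252, limma adjusted p = 0.026). On the centred scale 3 Hoxa genes were called lower in the gastrocnemius in the sham group (Hoxa5, Hoxa10 and Hoxa11), 3 after T3 and 5 after T9. Of all 11249 genes, 2270, 1801 and 2722 were lower on that scale, and most of these Hoxa calls were absent before centring. By limma Hoxd8 (0.82, adjusted p = 0.0089) and Hoxd9 (1.06, adjusted p = 0.0034) were called higher in the gastrocnemius in the sham group on the centred scale. Tbx15, a T-box gene of the shoulder girdle and of glycolytic fibres, with 159 to 256 CPM in the gastrocnemius and 178 to 333 in the triceps, was called lower in the gastrocnemius only after centring, in all 3 surgery groups, and not after quantile normalization.

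En1, the dorsoventral homeobox gene of the limb bud, was another gene called higher in the gastrocnemius after each surgery. It was higher in the gastrocnemius by 1.89 ± 0.288 in the sham group (limma adjusted p = 0.0063), 1.70 ± 0.288 after T3 (adjusted p = 0.0024) and 1.81 ± 0.288 after T9 (adjusted p = 0.00053), in 12 of 12 mice. Pknox1, a HOX cofactor, was called higher in all 3 groups (1.19, 1.28 and 1.39), and both kept that call after centring. Dach2, a partner of sine oculis and EYA proteins, went the other way and was called lower in the gastrocnemius after each surgery. Fewer than 4 gastrocnemius libraries reached a log2 value of 0, so Dach2 passed the filter only with its triceps libraries. Mean levels in the sham, T3 and T9 groups were 2.41, 0.646 and 0.411 CPM in the gastrocnemius and 4.47, 3.31 and 4.56 CPM in the triceps. The gastrocnemius values after injury lie near the floor, so the sizes of the differences that follow are imprecise. The log2 difference of Dach2 was -1.10 ± 0.368 in the sham group (adjusted p = 0.034), -2.47 ± 0.368 after T3 (adjusted p = 0.0012) and -3.62 ± 0.368 after T9 (adjusted p = 4e-05), and the T9 effect differed between the muscles by -2.52 ± 0.52 (adjusted p = 0.012). Irx3 was called lower after T3 (-1.11, adjusted p = 0.0074) and after T9 (-1.72, adjusted p = 0.00022).

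**Figure D5:**
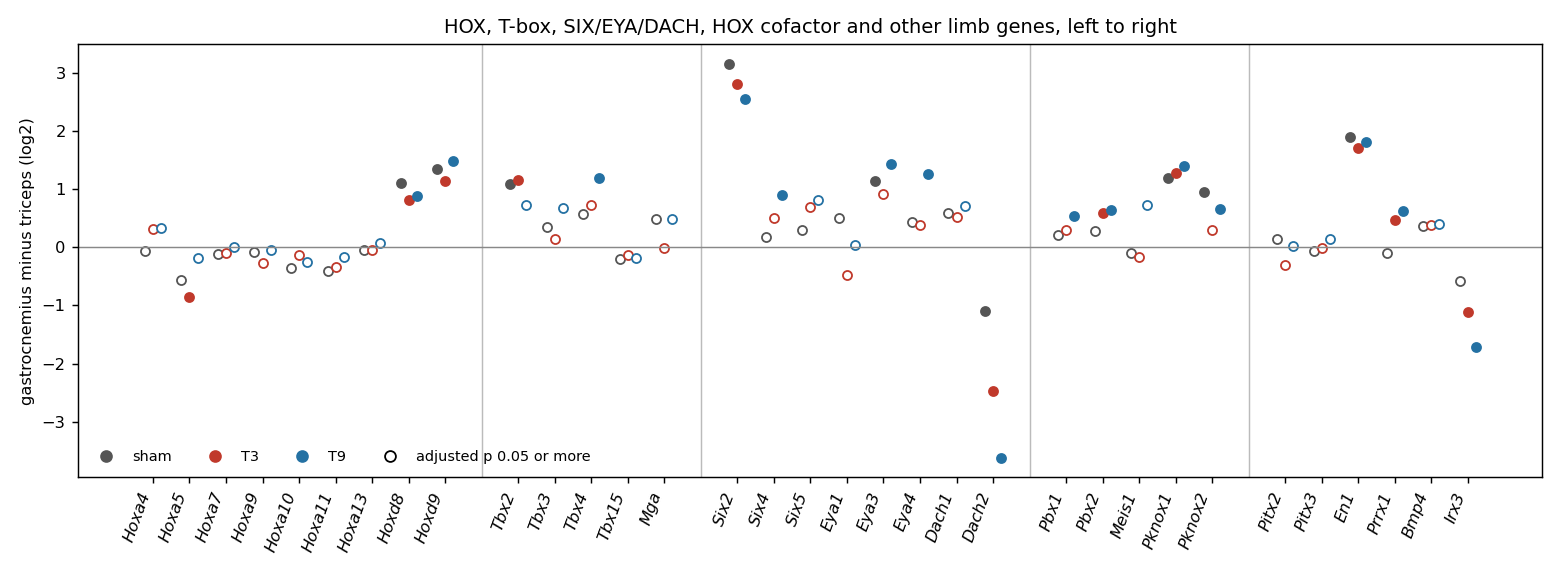
Gastrocnemius minus triceps on the log2 scale for the listed genes in the table except 1, grouped by family; colours are surgery groups and filled points have an adjusted p under 0.05. Hoxd8, Hoxd9, Six2, Pknox1 and En1 are filled and above 0 in all 3 groups, and Dach2 is filled and below 0.

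After injury, 28 of the other family genes could be tested in the gastrocnemius, of which 10 rose and 1 fell after T3, and 14 rose and 1 fell after T9, where 27.1% and 37.6% of all genes rose and 6.65% and 5.67% fell. Prrx1, a mesenchymal limb gene, rose by 0.88 ± 0.151 after T3 (limma adjusted p = 0.0009) and 0.92 ± 0.151 after T9 (adjusted p = 0.0007), and the T9 effect on it was larger in the gastrocnemius than in the triceps (0.72, adjusted p = 0.021). After centring, the difference between the muscles was 0.585 (limma adjusted p = 0.06), and the gastrocnemius values were 0.60 after T3 (adjusted p = 0.025) and 0.52 after T9 (adjusted p = 0.052). Hoxa4 rose after both injuries (0.90 and 0.94), Hoxa7 after T3 (0.63) and Hoxa5 after T9 (0.96), by limma. After centring, 7 rose and 1 fell after T3 (14.6% and 14.5% of all genes), and 5 rose and 3 fell after T9 (11.1% and 12.4%), and Hoxa4 remained called after T3 alone. In the triceps 5 of 29 rose after T3 (Hoxa7, Hoxa9, Hoxa11, Pknox2 and Pitx3, where 19% of all genes rose) and none was called after T9, and after centring Pknox2 and Pitx3 alone were called after T3.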

How the data were processed

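RNA-seq of gastrocnemius (12 libraries) and triceps brachii (18 libraries) was available as 1 table of log2 values per gene, deposited by the authors. Per the submitters' processing notes, HISAT2 2.1.0, featureCounts, Subread 1.5.1 and limma were used, with GRCm38, without a role for each. Values as deposited are log2 CPM (counts scaled by library size) with an offset of 0.5 reads, and whole reads were recovered for 100% of them (tolerance 0.01). The table held 11249 genes, 9 without a symbol in the annotation. No further scaling was applied, and genes needed a log2 value of at least 0 in 4 libraries.

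Differences were tested with limma 3.58.1 (R 4.3.3) with a variance trend, and p-values were adjusted by Benjamini-Hochberg over all genes with a threshold of 0.05. The muscles were compared in 24 libraries of 12 mice with the mouse as a block, the gastrocnemius groups in 12 libraries, and the triceps groups in 18 with a term for the number 57 or 60. The pairing is an inference from a number in the sample descriptions, which the labels do not say names a mouse. With this pairing, 11 of 12 mice had r over 0.1. Replicates of a group differed by more than sampling noise in all 63 pairs. The 5 genes and all lists were chosen with earlier results of these data known. Named are the 5 genes, listed genes, the 5 most alike genes of each, and measured neighbours. Relations were tested with Python 3.11.15 and scipy 1.17.1. The fits were tested on simulated data. Alternatives were other scaling, weights, filters, pseudocount, blocks and left-out libraries. Of the listed genes, 1 counts in the totals and is not reported here by itself.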

Additional observations from a re-analysis of the deposited data

How the results depend on the processing

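Of 1221 values of the 5 genes under other settings, 1114 kept their direction and their side of the threshold, 27 lost a call, 10 gained one, 3 reversed and 67 changed sign with no call in either setting; the cause was not tested. In the gastrocnemius after T9, Hoxd8 was -0.363 (limma adjusted p = 0.045) with centred libraries, and with the library median as a covariate Tbx4 was -0.0411 and Tbx2 -1.32 (limma adjusted p = 0.044). Reads of Tbx2, Tbx4 and Six2 in the triceps limit their precision.

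Numbers of genes called between the muscles were 4374 in the sham group, 3423 after T3 and 5959 after T9. Without the mouse as a replicate block they were 95 and 2136 in the sham and T3 groups. The library median as a covariate gave 308, 1961 and 2015, and leaving out the mice of the 4 libraries with the lowest medians gave 9 in the sham group and 5957 after T3; both settings were chosen after seeing the data. Leaving out 1 mouse gave 96 to 4650, 592 to 5545 and 3504 to 7164, with the lowest values without the mice of triceps sham replicate 3, T3 replicate 4 and T9 replicate 1.

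For the T3 effect between muscles, 140 genes were called, with 248 after centring, 315 after quantile normalization, 75 with no block, 337 with mouse as a random block, 1298 with the median covariate, 39 without the lowest medians and 54 to 183 without 1 mouse. For the T9 effect, 782 were called, with 447 without the block, 1287 with the random block, 3208 with the covariate, 327 without the lowest medians and 353 to 1488 without 1 mouse.

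In the gastrocnemius after T3, 3794 genes were called, with 2357 from only the groups compared, 2079 with the covariate and 2661 to 4765 without 1 library. After T9 there were 4864, with 2644 after centring, 2711 after quantile normalization, 1388 with the covariate and 3384 to 5589 without 1 library. Between T3 and T9 there were 183, with 70 under the replicate block, 1059 from only the groups compared, 423 with the covariate, 563 without the lowest medians and 11 to 194 without 1 library (lowest without T9 replicate 4). Among the 5 genes in this muscle the replicate block changed 1 call, that of Hoxd8 after T3 (limma adjusted p = 0.083).

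In the triceps after T3, 2624 genes were called, with 1247 in libraries with 60 alone and 1865 to 3122 without 1 library. After T9 there was 1, with 2 after centring, after quantile normalization and from only the groups compared, 0 with voom weights and with the replicate block, 15 with the covariate and 0 to 7 without 1 library. Between T3 and T9 there were 855, with 50 in libraries with 60 alone, 2212 with the covariate and 539 to 1066 without 1 library.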
